A study of Homo sapiens with 12 samples.

Results

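The mitosis genes are 40 genes, given by name, whose products carry a cell from entry into mitosis to its separation into daughter cells. They were looked up among the 57527 genes with a matched transcript in the deposited RNA-seq table, and all 40 were among the 16789 genes tested, each of which reached a value of 1 in 3 or more libraries. The cells were HK-2, an established human proximal tubule epithelial line made from kidney cortex with papillomavirus E6 and E7 genes, whose products bind p53 and retinoblastoma-family proteins. Cells were exposed for 72 h to a suspension of 2,8-dihydroxyadenine (DHA) at 60, 120 or 240 ug/ml, and control cells received medium alone. DHA is a purine of low solubility, and it crystallises in kidneys that lack adenine phosphoribosyltransferase. There were 3 libraries for each of the 4 groups, 12 in total, and all cells shared a medium with serum, pyruvate and antibiotics. The sources used here name no solvent for DHA. Nothing says that libraries within a group came from separate cultures, so the spread behind each p-value may be technical.

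Entry into mitosis is driven by cyclin-dependent kinase 1 bound to A and B cyclins, with the kinases PLK1 and the Auroras acting beside it. Condensed chromosomes are then caught at their kinetochores by spindle microtubules, and the spindle checkpoint holds back the anaphase-promoting complex until every kinetochore is attached. That complex, switched on by CDC20, marks cyclin B and securin for destruction, after which kinesins and the central spindle organise division of the cytoplasm. Most of these genes are transcribed in G2 phase and mitosis under FOXM1, B-MYB and the MuvB complex, through promoter elements called CCAAT boxes and the cell cycle homology region (CHR). In the healthy kidney, tubule cells rarely divide, but after injury surviving tubule cells re-enter the cycle. HK-2 cells divide in ordinary culture, so these genes are read here in cells that were already cycling.

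Promoter windows of 250 bases before to 50 bases after an annotated start, from RefSeq on GRCh38.p14, were matched by symbol for 34 of the 40 genes, which had 41 windows. The other 6 were TTK, AURKA, TPX2, BIRC5, FOXM1 and UBE2C. The motifs searched on both strands were TTTGAA for the CHR and CCAAT for the CCAAT box, and neighbouring matches may overlap. A CHR match stood in 26 of the 34 genes (76.5%), against 18.2% of the 27305 genes with a window. A CCAAT match stood in 28 of the 34 (82.4%), against 39.7% of all genes, and at least 2 stood in 19 (55.9%), against 12.9%. Both motifs stood in 22 of the 34 (64.7%), against 8.37% of all genes. The 130 bases before the start are shown for 8 genes, chosen after their values were seen, with both motifs in capitals on either strand. The first 4 were higher at 240 ug/ml, CCNB2 was not called, and the last 3 were lower.
MKI67 (chr10:128126424-128126553, minus strand): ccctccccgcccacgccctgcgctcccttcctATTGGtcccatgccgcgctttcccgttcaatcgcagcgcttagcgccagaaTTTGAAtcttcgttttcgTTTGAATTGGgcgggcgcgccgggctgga
PLK1 (chr16:23678759-23678888, plus strand): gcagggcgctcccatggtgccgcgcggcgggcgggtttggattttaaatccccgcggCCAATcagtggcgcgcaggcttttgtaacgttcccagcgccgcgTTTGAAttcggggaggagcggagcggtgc
CDC20 (chr1:43358851-43358980, plus strand): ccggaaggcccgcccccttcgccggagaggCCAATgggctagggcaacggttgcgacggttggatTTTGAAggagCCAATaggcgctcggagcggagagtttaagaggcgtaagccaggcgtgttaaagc
KIF23 (chr15:69414219-69414348, plus strand): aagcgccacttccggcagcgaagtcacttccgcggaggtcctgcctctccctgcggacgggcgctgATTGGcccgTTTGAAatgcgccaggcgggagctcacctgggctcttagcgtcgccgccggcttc
CCNB2 (chr15:59105016-59105145, plus strand): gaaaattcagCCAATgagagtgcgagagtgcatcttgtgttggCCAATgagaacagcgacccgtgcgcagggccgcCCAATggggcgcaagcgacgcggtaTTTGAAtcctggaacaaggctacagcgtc
CDC25C (chr5:138331805-138331934, minus strand): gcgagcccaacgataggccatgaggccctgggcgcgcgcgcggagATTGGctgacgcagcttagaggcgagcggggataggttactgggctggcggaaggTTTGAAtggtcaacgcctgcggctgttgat
KIF20A (chr5:138178982-138179111, plus strand): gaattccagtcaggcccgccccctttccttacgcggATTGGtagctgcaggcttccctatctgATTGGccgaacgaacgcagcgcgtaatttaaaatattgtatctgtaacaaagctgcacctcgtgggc
PTTG1 (chr5:160421725-160421854, plus strand): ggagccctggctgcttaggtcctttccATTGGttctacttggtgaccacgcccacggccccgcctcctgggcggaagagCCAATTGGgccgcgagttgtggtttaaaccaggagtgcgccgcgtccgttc
The CHR matches of PLK1 and CCNB2 began 29 bases before the start, and that of CDC25C began 30 bases before it. MKI67 held 2 CHR matches, at 47 and 29 bases before the start, and the nearer one shares 1 base with a CCAAT match. The stretches of KIF20A and PTTG1 held CCAAT matches without a TTTGAA match, and PTTG1 holds 2 CCAAT matches that overlap on opposite strands. Other forms of the CHR were not searched, so a missing match does not show that a gene lacks a CHR. CDC25C has 4 windows and PTTG1 has 2, of which 1 each is shown. The window shown was the one with most CHR and then most CCAAT matches in these 130 bases, and some CDC25C windows held neither motif.

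**Figure D1:**
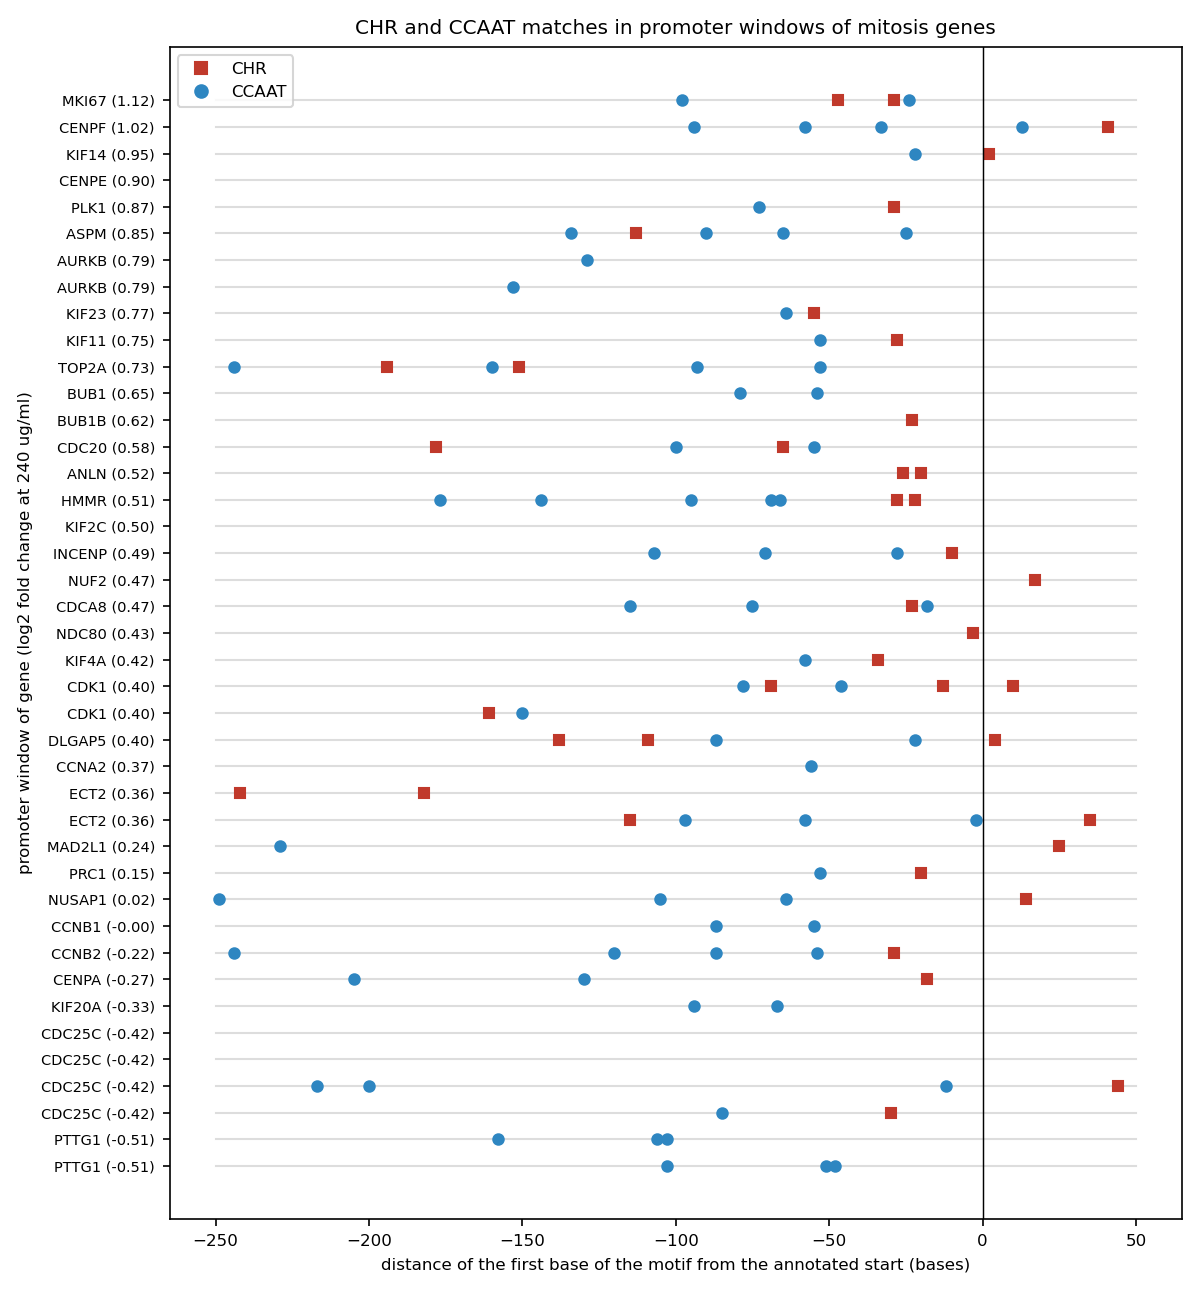
Positions of CHR matches (red squares) and CCAAT matches (blue circles) in the 41 promoter windows of 34 mitosis genes, as the distance in bases of the motif's first base from the annotated start. Genes run down the page from the highest to the lowest log2 fold change at 240 ug/ml, given in brackets, and genes with several starts have several rows; of the 40 CHR matches, 18 begin within 50 bases before the start, 13 farther before it and 9 after it.

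CHR matches stood in genes of every call at 240 ug/ml. They were present in 18 of 23 genes called higher, 6 of 7 not called and 2 of 4 called lower, and all 4 of the lower genes held a CCAAT match. A match is a description of these letters, and nothing about a factor's binding was measured.

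The table holds normalized signal values without counts, so read depth is not known and counting intervals could not be given. Library totals of the signal lay between 1143850 and 1228979 in control, 984048 and 1060084 at 60, 875886 and 962259 at 120, and 791808 and 969479 at 240 ug/ml. Values below are this signal, changes are log2 fold changes on the log2(signal + 1) scale with the SE of a limma fit, and a change was called at a Benjamini-Hochberg adjusted p under 0.05 over all 16789 genes. The proximal tubule and epithelial markers KRT18, KRT19, EPCAM and GGT1 were present, whereas LRP2 and SLC22A6 were at 0 in every library and ANPEP, AQP1, CUBN and SLC34A1 stayed under 1. Of these 13 markers 7 were tested and 5 called lower at 240 ug/ml, with a summed signal of 726.3 to 843.4 at 240 ug/ml and 855.9 to 929.7 in control. Of 5 fibroblast markers, 2 were tested and both were called lower at 240 ug/ml, and the list's summed signal ran between 33.7 and 61.6 at 240 ug/ml, against 227.8 to 324.2 in control. It came almost wholly from LUM and DCN, while PDGFRA and COL3A1 stayed under 1 in all libraries. Of 5 leukocyte markers only CD68 was tested, and it was called lower at 240 ug/ml, PTPRC and CD3E were at 0, and all 5 endothelial markers stayed under 1. The part of these marker changes in the values of the mitosis genes was not tested. In bulk RNA, a change in the share of cells in mitosis cannot be told apart from a change in mRNA per cell.

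The third libraries of the control and 60 ug/ml groups stood apart in these genes, and that of the 120 ug/ml group did so less strongly. Control library 3 had the highest value of its group in 38 of 40 members, against 31.0% of all genes tested. The 60 ug/ml library 3 was the highest of its group in 36 of 40, against 36.8% of all genes. At 120 ug/ml library 3 was the highest in 26 of 40, against 37.2% of all genes. At 240 ug/ml it was so in 13 of 40, against 29.2%. The median member stood at a log2 difference from the control mean of -0.11, -0.06 and 0.17 in the 3 control libraries, at -0.09, -0.02 and 0.38 at 60, at 0.36, 0.42 and 0.53 at 120, and at 0.56, 0.41 and 0.52 at 240 ug/ml. By this median, 60 ug/ml libraries 1 and 2 thus lay within the control range, and library 3 lay beside the 120 ug/ml libraries. On the first principal component of all genes it also lay between them, at 5.56, against -12.6 and -20.0 for the other 60 ug/ml libraries and 19.7 to 23.3 for those at 120 ug/ml. The count of members called higher at 60 ug/ml is therefore also given without 60 ug/ml library 3. Other values at 60 ug/ml include it unless stated.

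Most mitosis genes were higher after DHA at 120 and 240 ug/ml. At 60 ug/ml limma called 5 of 40 higher (12.5%), near the 8.89% of all genes tested, and 0 lower, against 10.0% of all genes, with 11 members at an unadjusted p under 0.05. At 120 ug/ml 23 were higher (57.5%) and 1 lower, against 15.9% and 20.8% of all genes. At 240 ug/ml 28 were higher (70%) and 4 lower, against 19.7% and 23.5% of all genes. The median change of the 40 genes was 0.07, 0.44 and 0.49 at 60, 120 and 240 ug/ml, and that of all genes was -0.03 at each dose. Without 60 ug/ml library 3, 3 were higher at 60 ug/ml and 16 of 40 log2 fold changes were positive, against 26 with it. The median change of the 40 genes at 60 ug/ml was then -0.05. Leaving out control library 3 instead gave 34 positive changes and a median of 0.19 at 60 ug/ml. With the libraries numbered 3 left out of all groups, a setting added after the data were seen, 4 members were higher at 60 ug/ml. In that setting 631 of 16178 genes were higher, 23 member changes were positive and the median member change was 0.04. Without control library 1 the counts higher were 3, 15 and 21 at 60, 120 and 240 ug/ml, and without control library 2 they were 5, 15 and 23. Leaving out control library 3 gave 5, 26 and 30. Calls among all genes fell too without control library 1, to 923, 2027 and 2688 of 16621 genes higher. With all libraries they were 1492, 2670 and 3306 of 16789.

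At 60 ug/ml every library lay above every control library in 7 members, where 16.2% of all genes did so, below in 3, against 20.3%, and 30 overlapped. At 120 ug/ml 26 members lay wholly above control (21.7% of all genes) and 2 wholly below (27.3%). At 240 ug/ml 30 lay wholly above (24.2% of all genes) and 4 wholly below (28.7%). An F test for any difference among the 4 groups called 28 of 40 members, against 42.7% of all genes. The summed signal of the 40 genes took 0.185%, 0.201% and 0.243% of the library total in control, 0.235%, 0.239% and 0.343% at 60, 0.340%, 0.366% and 0.366% at 120, and 0.368%, 0.390% and 0.387% at 240 ug/ml. The totals themselves fell with dose. When all libraries were scaled to equal totals, the median of all genes at 240 ug/ml moved to 0.33 and that of the mitosis genes to 0.90. With this scaling 35 members were called higher and 0 lower. Of all 16789 genes, 7205 were then higher and 1531 lower, so the calls shifted upward among all genes too.

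**Figure D2:**
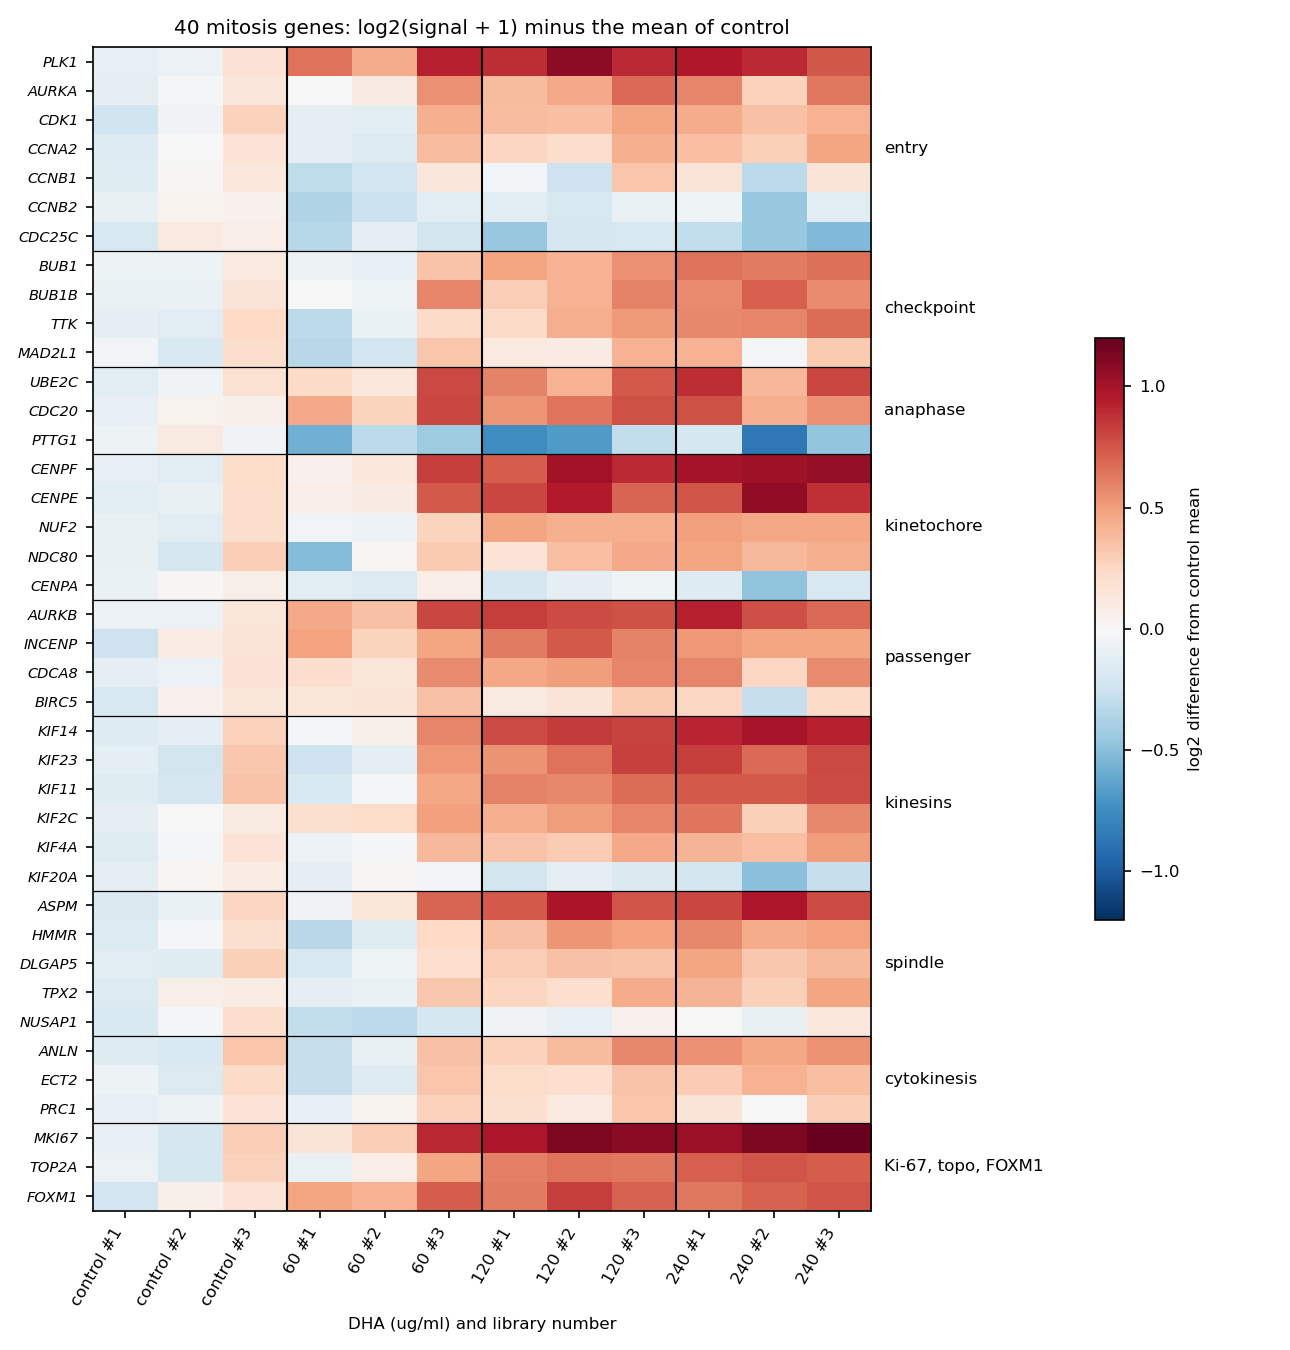
Difference of each library's log2(signal + 1) from the control mean (colour, log2 scale) for the 40 mitosis genes (rows, by role) in the 12 libraries (columns, by dose). The 60 ug/ml library 3 is red in most rows like the 120 and 240 ug/ml libraries, while PTTG1, CDC25C, CCNB2, CENPA and KIF20A are blue in most DHA libraries.

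Among the 7 kinases, cyclins and phosphatase of mitotic entry, 4 were higher and 1 was lower at 240 ug/ml. The cyclin CCNB1 (chr5:69167010-69178245), which activates CDK1 at mitotic entry, had 101.8, 113.9 and 122.7 in control libraries 1 to 3, 90.7, 96.0 and 123.8 at 60, 110.1, 94.6 and 141.6 at 120 and 125.1, 90.1 and 125.2 at 240 ug/ml. All 3 doses overlapped control, and the libraries of each dose spread over a wider range than the control libraries. Its log2 fold change at 240 ug/ml was -0.00 ± 0.17 (95% interval -0.38 to 0.37), and its sign turned to 0.42 with equal totals and to 0.11 with quantile normalization. CCNA2 (chr4:121816444-121823933), the A cyclin of S phase and early mitosis, had 46.7, 52.2 and 58.5 in control, 48.4, 46.4 and 67.9 at 60, 62.7, 60.8 and 70.5 at 120 and 67.2, 63.8 and 73.0 at 240 ug/ml. Every library at 120 and 240 ug/ml lay above control, and only library 3 did so at 60 ug/ml. Its change at 240 ug/ml was 0.37 ± 0.14 (adjusted p = 0.0442 by limma), a call lost when control library 1 or 2, 120 ug/ml library 1 or 2, or any 1 of the 240 ug/ml libraries was left out. The partner kinase CDK1 (chr10:60778331-60794852) had 95.2, 109.1 and 136.5 in control, 104.5, 102.0 and 150.9 at 60, 145.4, 144.3 and 156.4 at 120 and 153.0, 143.4 and 150.4 at 240 ug/ml. The libraries at 120 and 240 ug/ml lay close together above control, whose own libraries were widely spread. Its call at 240 ug/ml, 0.40 ± 0.15 (adjusted p = 0.0499 by limma), stood at the threshold and was lost under 15 settings, among them without control library 1 (0.28, adjusted p = 0.187) and with a pseudocount of 0.5.

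PLK1 and AURKA, kinases that mature centrosomes and build the spindle, were both higher. PLK1 (chr16:23677656-23690367) had 51.7, 53.0 and 62.7 in control, 87.8, 76.3 and 106.9 at 60, 103.3, 118.0 and 104.5 at 120 and 109.4, 104.2 and 93.8 at 240 ug/ml. All 9 DHA libraries lay above all control libraries. PLK1 rose by 0.68 ± 0.12 at 60, 0.95 ± 0.12 at 120 and 0.87 ± 0.12 at 240 ug/ml (adjusted p = 0.00379, 0.000181 and 0.000218 by limma), a 1.82-fold change at the highest dose. AURKA (chr20:56369389-56392337) had 73.0, 77.4 and 87.0 in control, 79.0, 84.6 and 115.7 at 60, 102.7, 108.6 and 126.8 at 120 and 119.2, 95.6 and 122.8 at 240 ug/ml. Libraries 1 and 2 at 60 ug/ml overlapped control, and all those at the higher doses lay above it. AURKA rose by 0.50 ± 0.15 at 240 ug/ml (adjusted p = 0.0174 by limma), and the call was lost without control library 1 or 2 or 240 ug/ml library 1 or 3.

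CCNB2, the second B cyclin, and CDC25C, the phosphatase that removes inhibitory phosphates from CDK1, did not rise. CCNB2 averaged 62.4 ± 8.94 at 240 ug/ml and 72.2 ± 3.96 in control, a change of -0.22 ± 0.10 (adjusted p = 0.113 by limma). CDC25C (chr5:138285265-138338355) had 11.1, 14 and 13.6 in control, 9.9, 11.8 and 10.9 at 60, 9.1, 11 and 11.1 at 120 and 10.3, 9.1 and 8.6 at 240 ug/ml. Only the 240 ug/ml libraries lay wholly below control. CDC25C fell by 0.42 at 240 ug/ml (SE 0.11, adjusted p = 0.0107 by limma), but its change was -0.030 with equal totals and -0.33 (adjusted p = 0.121) without the libraries numbered 3, neither of them called.

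Of the 4 spindle checkpoint genes, BUB1, BUB1B and TTK were higher at 120 and at 240 ug/ml. BUB1, a kinase that recruits checkpoint proteins to kinetochores, averaged 61.3 ± 0.833 at 240 ug/ml and 38.9 ± 2.77 in control, a change of 0.65 ± 0.11 (adjusted p = 0.000646 by limma). BUB1B, a subunit of the checkpoint complex that inhibits CDC20, averaged 41.3 ± 2.60 at 240 ug/ml and 26.6 ± 2.60 in control (0.62 ± 0.15). TTK, the kinase that starts checkpoint signalling, averaged 36.9 ± 1.45 at 240 ug/ml and 24.0 ± 3.70 in control (0.61 ± 0.14). For all 3 of them the 240 ug/ml libraries lay wholly above control, and none of the 4 was called at 60 ug/ml. MAD2L1, the checkpoint protein that binds CDC20, averaged 86.1 ± 13.3 at 240 ug/ml and 72.7 ± 10.4 in control, and its change of 0.24 ± 0.18 was not called.

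The 3 genes around the anaphase-promoting complex went separate ways. CDC20 (chr1:43358955-43363203), its activator and the target of the checkpoint, had 144.0, 159.0 and 161.1 in control, 211.9, 186.7 and 269.5 at 60, 223.0, 241.1 and 263.7 at 120 and 262.6, 209.2 and 226.7 at 240 ug/ml. Each DHA library lay above each control library, and the doses overlapped one another. CDC20 rose by 0.51 ± 0.13 at 60 and 0.58 ± 0.13 at 240 ug/ml (adjusted p = 0.0203 and 0.00414 by limma), and the 60 ug/ml call was lost without 60 ug/ml library 3 (0.36, adjusted p = 0.058) or control library 1. UBE2C, the ubiquitin-conjugating enzyme that works with the complex, averaged 450.6 ± 76.6 at 240 ug/ml and 276.0 ± 31.9 in control (0.70 ± 0.18, adjusted p = 0.00876 by limma). PTTG1 (chr5:160421822-160428744) encodes securin, the separase inhibitor that the complex destroys. It had 150.1, 168.8 and 152.0 in control, 104.5, 125.8 and 116.5 at 60, 92.9, 97.6 and 127.5 at 120 and 135.5, 86.0 and 112.7 at 240 ug/ml. All 9 DHA libraries lay below all control libraries, with no order among the doses. PTTG1 fell by 0.57 at 120 and 0.51 at 240 ug/ml (SE 0.16 each, adjusted p = 0.0149 and 0.0216 by limma), and its change at 60 ug/ml, -0.44 ± 0.16, was not called. The call at 240 ug/ml was lost without control library 2 (-0.46, adjusted p = 0.0744) or 240 ug/ml library 2 (-0.34, adjusted p = 0.0813), and with equal totals the change was -0.085. Subtracting a trend with transcript length over all genes also lost the call (-0.28, adjusted p = 0.138 by limma). So did leaving out the libraries numbered 3 (-0.56, adjusted p = 0.0648 by limma). PTTG1 has near-identical gene copies elsewhere in the genome, and the sources used here do not say how reads were split among them.

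**Figure D3:**
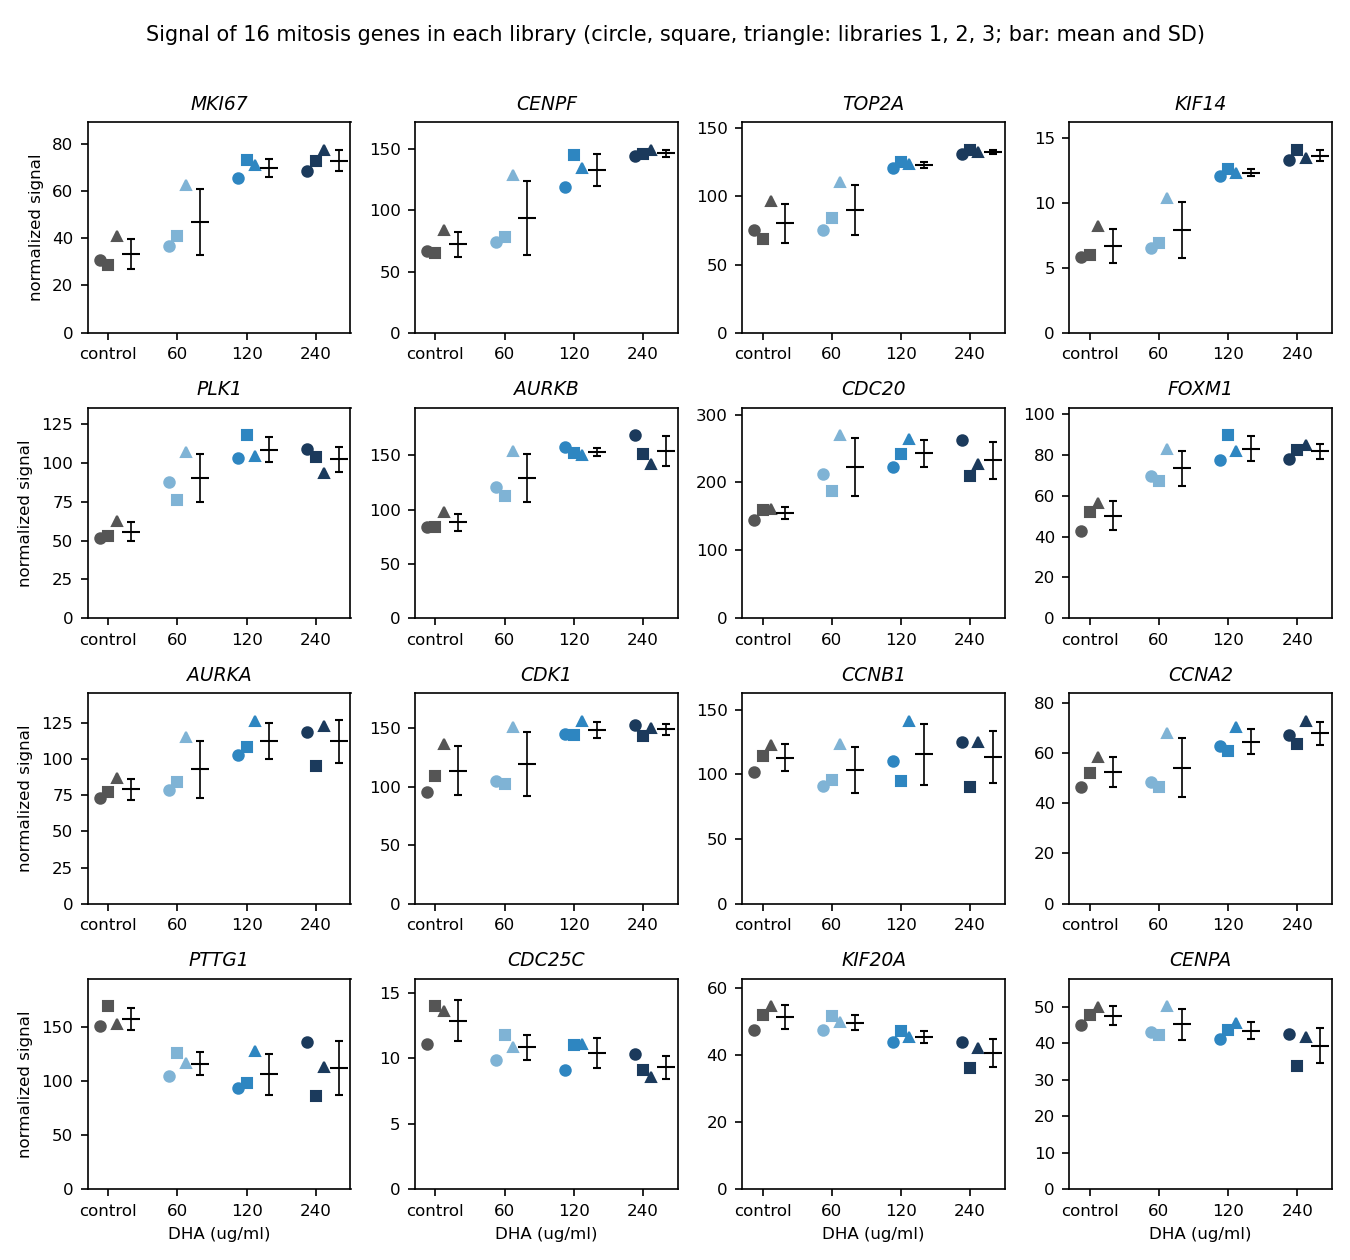
Normalized signal (linear axis from 0) of 16 mitosis genes in each of the 12 libraries by DHA dose, with circles, squares and triangles for libraries 1, 2 and 3 and bars for the mean and SD of each group. The triangle at 60 ug/ml lies above the other 60 ug/ml libraries for MKI67 (62.7), CENPF (128.7) and TOP2A (110.3), while for PTTG1 all 9 DHA libraries lie below control.

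Among the 5 kinetochore and centromere genes, CENPE, CENPF and NUF2 were higher at 120 and 240 ug/ml, and CENPA was lower at 240 ug/ml. CENPF (chr1:214603195-214664588), a large kinetochore protein of G2 and mitosis, had 67.2, 65.5 and 84.0 in control, 74.5, 78.3 and 128.7 at 60, 119.5, 145.3 and 134.7 at 120 and 144.6, 146.0 and 149.7 at 240 ug/ml. The 240 ug/ml libraries lay within a narrow band far above control, and 60 ug/ml library 3 lay near those at 120 ug/ml. CENPF rose by 1.02 ± 0.18 at 240 ug/ml (2.03-fold, adjusted p = 0.000816 by limma). CENPE (chr4:103105806-103198409), the kinesin-like motor that carries chromosomes to the spindle equator, had 6.1, 6.3 and 8.0 in control, 7.2, 7.3 and 11.9 at 60, 12.5, 14 and 11.6 at 120 and 12.1, 15.2 and 13.2 at 240 ug/ml. Its libraries at 120 and 240 ug/ml lay wholly above control. CENPE rose by 0.90 ± 0.17 at 240 ug/ml (adjusted p = 0.00145 by limma), a low-level gene whose change the added 1 understates. NUF2, a subunit of the NDC80 complex that binds microtubules, averaged 57.5 ± 0.666 at 240 ug/ml and 41.4 ± 5.62 in control (0.47 ± 0.10). NDC80 itself averaged 30.1 ± 0.854 at 240 ug/ml and 22.3 ± 4.33 in control, and its change of 0.43 ± 0.18 was not called (adjusted p = 0.079 by limma).

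CENPA (chr2:26764289-26801067), the histone variant that marks centromeres, had 44.9, 47.9 and 50 in control, 43.1, 42.4 and 50.2 at 60, 41.1, 43.7 and 45.7 at 120 and 42.6, 33.8 and 41.6 at 240 ug/ml. The 240 ug/ml libraries lay below control, with library 2 the lowest of all 12. CENPA fell by 0.27 (SE 0.10, adjusted p = 0.0422 by limma). The call was lost under 14 settings, among them leaving out 240 ug/ml library 2 (-0.17) or any 1 control library (-0.24 to -0.32), and with equal totals the sign turned to 0.15.

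In the chromosomal passenger complex, which corrects faulty attachments and guides cytokinesis, AURKB, INCENP and CDCA8 were higher and BIRC5 was not called. AURKB (chr17:8204733-8210600), its kinase, had 83.8, 83.7 and 97.4 in control, 121.3, 112.7 and 154.3 at 60, 157.5, 152.5 and 150.1 at 120 and 168.6, 151.1 and 141.8 at 240 ug/ml. All DHA libraries lay above control. AURKB rose by 0.54 ± 0.11 at 60, 0.79 ± 0.11 at 120 and 0.79 ± 0.11 at 240 ug/ml (adjusted p = 0.00829, 0.000359 and 0.000256 by limma). INCENP, the scaffold of the complex, averaged 19.6 ± 0.404 at 240 ug/ml and 13.8 ± 2.14 in control. It rose by 0.41 ± 0.11 at 60 ug/ml (adjusted p = 0.0204 by limma), a call lost without control library 1, 60 ug/ml library 1 or 60 ug/ml library 3. CDCA8, which encodes borealin, averaged 72.0 ± 9.23 at 240 ug/ml and 51.8 ± 5.61 in control (0.47 ± 0.13). BIRC5, which encodes survivin, averaged 70.8 ± 13.8 at 240 ug/ml and 66.9 ± 8.04 in control (0.07 ± 0.14), so its log2 change lay between -0.24 and 0.37 at 95% confidence.

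Of the 6 kinesins, motors that slide or depolymerise microtubules, 5 were higher at 120 and 240 ug/ml and KIF20A was lower at 240 ug/ml. KIF14 (chr1:200551497-200620734), a motor of the central spindle, had 5.8, 6.0 and 8.2 in control, 6.5, 6.9 and 10.4 at 60, 12.1, 12.6 and 12.3 at 120 and 13.3, 14.1 and 13.5 at 240 ug/ml. The 120 and 240 ug/ml libraries formed tight groups above control. KIF14 rose by 0.95 ± 0.15 at 240 ug/ml (1.93-fold, adjusted p = 0.000563 by limma). KIF11, which pushes spindle poles apart, averaged 44.4 ± 0.896 at 240 ug/ml and 26.4 ± 5.93 in control (0.75 ± 0.16). KIF23, a subunit of centralspindlin, averaged 32.0 ± 1.76 at 240 ug/ml and 18.6 ± 4.06 in control (0.77 ± 0.19). KIF2C, a microtubule depolymerase, rose by 0.50 ± 0.11 at 240 ug/ml. KIF4A, a chromosome-bound motor, rose by 0.42 ± 0.12. KIF20A (chr5:138178719-138187715) moves the passenger complex to the central spindle. It had 47.4, 51.9 and 54.6 in control, 47.4, 51.8 and 49.9 at 60, 43.8, 47.3 and 45.4 at 120 and 43.8, 36.0 and 42.1 at 240 ug/ml. The libraries at 120 and 240 ug/ml lay below control, and those at 60 ug/ml did not. KIF20A fell by 0.33 at 240 ug/ml (SE 0.08, adjusted p = 0.00819 by limma), a call lost without the libraries numbered 3 (-0.31, adjusted p = 0.062), and the sign turned to 0.090 with equal totals.

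Of the 5 spindle assembly genes, ASPM, HMMR, TPX2 and DLGAP5 were higher at 240 ug/ml and NUSAP1 was not called. ASPM (chr1:197084128-197146694), which holds microtubule minus ends at spindle poles, had 11.9, 12.8 and 16.4 in control, 13.2, 15.1 and 22.7 at 60, 23.2, 27.8 and 23.6 at 120 and 24.4, 27.6 and 24.1 at 240 ug/ml. Its 120 and 240 ug/ml libraries overlapped each other and lay wholly above control. ASPM rose by 0.85 ± 0.17 at 240 ug/ml (adjusted p = 0.00219 by limma). HMMR, a spindle pole protein, averaged 23.0 ± 1.14 at 240 ug/ml and 16 ± 2.13 in control (0.51 ± 0.13). TPX2, the activator of Aurora A, rose by 0.39 ± 0.12 at 240 ug/ml. DLGAP5, a spindle microtubule binder, rose by 0.40 ± 0.12. NUSAP1, a microtubule-bundling protein, averaged 89.9 ± 6.82 at 240 ug/ml and 89.3 ± 12.4 in control (0.02 ± 0.10). Cytokinesis held 3 genes, of which only the actomyosin scaffold ANLN was called, with 88.1 ± 2.70 at 240 ug/ml and 62.2 ± 13.3 in control (0.52 ± 0.17, adjusted p = 0.0268 by limma). ECT2, which activates RhoA at the cell equator, changed by 0.36 ± 0.14 (adjusted p = 0.0646 by limma). PRC1, which bundles the central spindle, changed by 0.15 ± 0.11. Libraries were made with a dUTP-marked second strand, but the sources used here name no strand setting for the quantification. Reads of PRC1 and of the antisense gene beside it may therefore not have been separated.

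The largest change of all 40 genes was that of MKI67 (chr10:128096659-128126385), which encodes Ki-67, the proliferation antigen that coats mitotic chromosomes. It had 30.7, 28.6 and 40.8 in control, 36.9, 40.8 and 62.7 at 60, 65.7, 73.0 and 71.1 at 120 and 68.6, 72.7 and 77.5 at 240 ug/ml. Every library at the upper doses lay above every one in control and at 60 ug/ml. MKI67 rose by 1.06 ± 0.18 at 120 and 1.12 ± 0.18 at 240 ug/ml (2.17-fold, adjusted p = 0.000829 and 0.000438 by limma), and its change at 60 ug/ml, 0.45 ± 0.18, was not called. TOP2A (chr17:40388516-40417950), the topoisomerase that untangles sister chromatids, had 75.6, 68.6 and 96.4 in control, 75.2, 84.2 and 110.3 at 60, 120.9, 125.0 and 123.7 at 120 and 131.0, 134.3 and 132.4 at 240 ug/ml. Its upper-dose libraries formed narrow groups above all others. TOP2A rose by 0.73 ± 0.14 at 240 ug/ml (1.66-fold, adjusted p = 0.00145 by limma). FOXM1 (chr12:2857681-2877155), the transcription factor of the G2 and M phase programme, had 42.6, 52.1 and 56.3 in control, 69.9, 67.3 and 83.2 at 60, 77.8, 89.8 and 82.2 at 120 and 78.0, 82.5 and 85.0 at 240 ug/ml. All DHA libraries lay above control. FOXM1 rose by 0.54 ± 0.11 at 60, 0.72 ± 0.11 at 120 and 0.70 ± 0.11 at 240 ug/ml (adjusted p = 0.00693, 0.00052 and 0.000464 by limma).

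Calls followed a few patterns over the doses. PLK1, CDC20, AURKB, INCENP and FOXM1 were called higher at all 3 doses, 18 genes at 120 and 240 ug/ml, and CCNA2, CDK1, TPX2, DLGAP5 and ANLN at 240 ug/ml alone. CDC25C, CENPA and KIF20A were called lower at 240 ug/ml alone. The 8 genes called at no dose were CCNB1, CCNB2, MAD2L1, NDC80, BIRC5, NUSAP1, ECT2 and PRC1. A call at one dose and none at another does not show that the doses differ, so the doses were also compared with each other. The comparisons with control share the 3 control libraries.

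**Figure D4:**
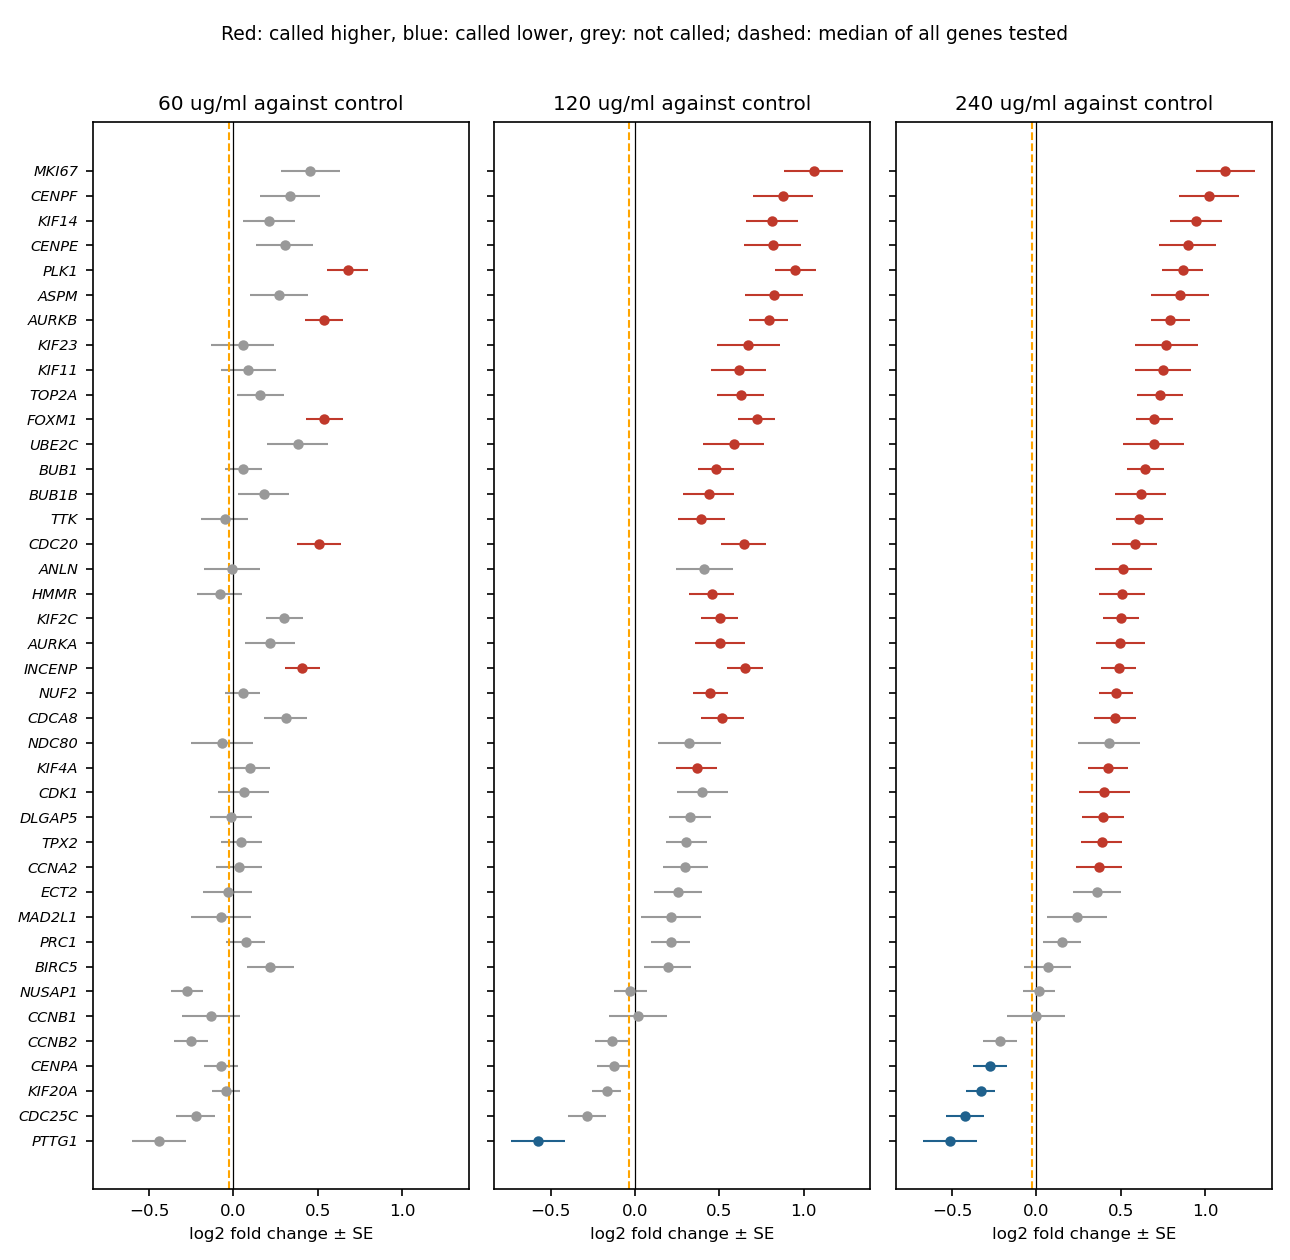
Log2 fold change with its SE (x axis) of the 40 mitosis genes (rows, in the same order) at 60, 120 and 240 ug/ml against control, in red where called higher, blue where called lower and grey where not called. The dashed line is the median of all genes tested (-0.03 at each dose); most genes lie to its right at 120 and 240 ug/ml, and at 60 ug/ml only PLK1, CDC20, AURKB, INCENP and FOXM1 are red.

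Between 240 and 60 ug/ml, 15 members were higher and 1 lower, against 11.7% and 13.1% of all genes. The higher ones were BUB1, TTK, CENPE, CENPF, NUF2, KIF11, KIF23, KIF14, NUSAP1, DLGAP5, ASPM, HMMR, ANLN, MKI67 and TOP2A, and the lower one was KIF20A. KIF14 averaged 13.6 ± 0.416 at 240 ug/ml and 7.93 ± 2.15 at 60 ug/ml (0.74, adjusted p = 0.00741 by limma). NUSAP1, not called against control, averaged 89.9 ± 6.82 at 240 ug/ml and 73.2 ± 2.84 at 60 ug/ml (0.29, adjusted p = 0.0486 by limma). The differences of PLK1 (0.19, adjusted p = 0.278 by limma), CDC20 (0.07) and INCENP (0.08) between these doses were not called. The count depended on 60 ug/ml library 3: 26 were higher without it and 4 without either of the other 60 ug/ml libraries. Between 120 and 60 ug/ml 0 of 40 were called (0.536% of all genes were higher and 1.61% lower), with 20 at an unadjusted p under 0.05 and 35 of 40 changes positive, median 0.27. Without 60 ug/ml library 3, 24 were called higher between 120 and 60 ug/ml. The median change was then 0.45 for the members and -0.02 for all genes. The share of all genes called between doses was not counted with a library left out, so these counts have no background beside them. Between 240 and 120 ug/ml limma called 0 members and 0 of all genes, 0 members had an unadjusted p under 0.05, and the changes ran from -0.16 to 0.22.

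Gene sums can hide transcripts that move differently. The 40 genes had 311 matched transcripts, of which 190 were tested. At 60 ug/ml limma called 4 of them, all higher, where 1.80% of all 54340 transcripts tested were higher and 1.88% lower. At 120 ug/ml 45 were higher and 2 lower, against 6.91% and 8.37%. At 240 ug/ml 50 were higher and 5 lower, against 9.87% and 10.9%. In 38 of the 40 genes over 50% of the signal lay in protein-coding transcripts. The exceptions were MAD2L1, with 16.2% in protein-coding transcripts and most of the rest in MAD2L1-202, of the nonsense-mediated decay type, and CENPF. Of the CENPF signal, 61.6% at 240 ug/ml and 58.2% in control was assigned to CENPF-204, a 734-base processed transcript. The full-length CENPF-201, of 10307 bases, averaged 51.8 ± 1.29 at 240 ug/ml and 28.2 ± 5.17 in control (0.87 ± 0.15, adjusted p = 0.00275 by limma). KIF14-202 rose by 1.32 ± 0.20 to 61.1% of its gene's signal at 240 ug/ml, against 41.5% in control, while KIF14-201 changed by 0.36 ± 0.15 and was not called. The main securin transcript PTTG1-201 fell by 0.59 (SE 0.18, adjusted p = 0.0376 by limma), with 101.0 ± 25.5 at 240 ug/ml and 149.5 ± 11 in control. In the same gene a 434-base retained-intron transcript was higher, with 4.10 ± 1.54 at 240 ug/ml and 0.600 ± 1.04 in control (1.81 ± 0.47, adjusted p = 0.0195 by limma). Retained-intron transcripts of the members were higher in 8 of 41 cases at 240 ug/ml, and AURKB-205 was one of them (1.60 ± 0.29, adjusted p = 0.00334 by limma). The members' protein-coding transcripts were higher in 38 of 120 cases and lower in 4. Calls of retained-intron transcripts over all genes were not counted, so the 8 of 41 has no background of its own type. The assignment of reads to such short transcripts is the authors' and was not checked against reads.

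The members also differed in length and base composition, neither of which the choice of genes used. Length is the mean over a gene's transcripts weighted by their signal. The 23 genes called higher at 240 but not at 60 ug/ml had a median length of 2925 bases and a median GC content of 39.7%. The 5 called higher already at 60 ug/ml had a median of 1994 bases and 56.9% GC, with a range of 54.6% to 59.6%. The 4 called lower had a median of 1533 bases and 47.5% GC, and all genes tested had 1877 bases and 49.1% GC. Across the 40 genes the change at 240 ug/ml went with length at Pearson r = 0.58 and Spearman rho = 0.53, against 0.09 and 0.19 across 16776 genes. The change at 60 ug/ml went with GC content at r = 0.50 and rho = 0.42, against 0.26 and 0.30 across all genes. These are descriptions over genes of the same 12 libraries, and genes are not independent replicates. After a trend with length over all genes was subtracted, 25 members were called higher and 2 lower at 240 ug/ml. PTTG1 and CENPA were no longer called lower. The median change was then 0.50 for the members and 0.01 for all genes. After a trend with GC content was subtracted, 27 were higher and 3 lower at 240 ug/ml, with medians of 0.47 for the members and 0.01 for all genes. With the GC trend subtracted 6 were higher at 60 ug/ml, among them 3 of the 5 called without it, with CDC20 and INCENP no longer called.

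**Figure D5:**
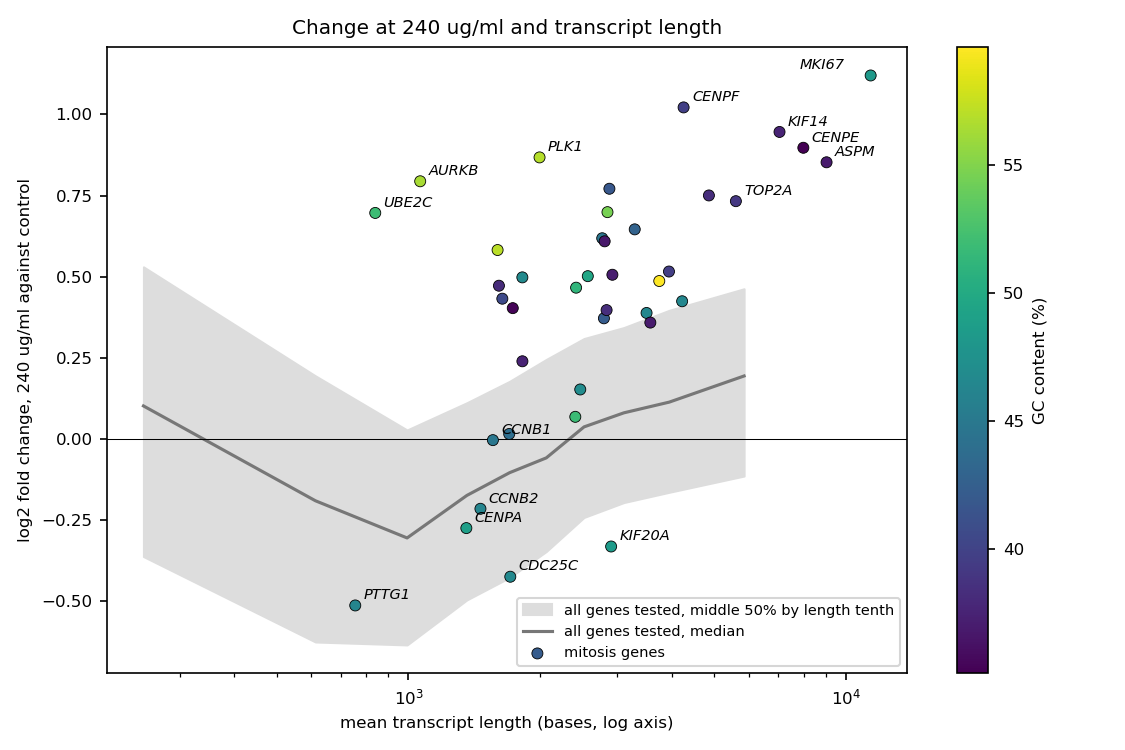
Log2 fold change at 240 ug/ml against control of the 40 mitosis genes (points, coloured by GC content in %) by mean transcript length (log axis, bases), with the median (line) and the middle 50% (band) of all genes tested in bins of length with like numbers of genes. The longest genes MKI67, ASPM, CENPE and KIF14 lie among the highest points and PTTG1, the shortest, is the lowest, while AURKB and UBE2C are short and high.

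Other genes of mitosis were read from lists of 143 genes, all tested, which do not hold the 40 members. Of these, 22 were higher and 10 lower at 60 ug/ml, 57 higher and 14 lower at 120 ug/ml, and 69 higher and 16 lower at 240 ug/ml. Of all genes tested, 8.89% were higher and 10.0% lower at 60, 15.9% and 20.8% at 120, and 19.7% and 23.5% at 240 ug/ml. Condensin and cohesin, the rings that compact chromosomes and hold sister chromatids, had 14 of 17 genes called at 240 ug/ml, all higher, among them the condensin subunit NCAPG (49.4 ± 1.87 at 240 ug/ml and 22.6 ± 6.60 in control, 1.13 ± 0.20). Spindle, centrosome and cytokinesis genes had 21 of 29 higher and 1 lower, with the kinesin KIF18B at 0.88 ± 0.11 and the augmin subunit HAUS1 at -0.47 ± 0.11. Genes of the checkpoint and of cohesion protection had 6 of 9 called, all higher, with SGO2, the shugoshin that guards centromeric cohesion, at 0.86 ± 0.12. The anaphase-promoting complex and its regulators had 3 of 17 higher and 5 lower, shares near the 19.7% and 23.5% of all genes. In that list the small subunits ANAPC15 (29.4 ± 7.24 at 240 ug/ml and 57.8 ± 4.56 in control, -0.98 ± 0.16) and CDC26 (-0.93 ± 0.14) were the lowest, and the complex's inhibitor FBXO5 was the highest (0.51 ± 0.14). Further kinetochore and centromere genes had 8 of 32 higher, a share near the 19.7% of all genes, and 4 lower, from the CENPA chaperone HJURP (0.76 ± 0.12) to PMF1, a subunit of the MIS12 complex (-0.62 ± 0.09). Genes of mitotic entry and exit had 9 of 17 higher and 2 lower. The CDK1-inhibiting kinase PKMYT1 rose by 1.13 ± 0.14 and the phosphatase CDC25A by 0.91 ± 0.14, whereas CKS2, a small subunit of CDK complexes, fell by 0.80 (SE 0.19), with 253.1 ± 70.8 at 240 ug/ml and 429.5 ± 15.0 in control. Regulators of the MuvB, DREAM and retinoblastoma families had 8 of 22 higher and 4 lower, with E2F7, a repressor of the E2F family, at 1.13 ± 0.12 and RBL2, the pocket protein of quiescence, at -0.45 ± 0.07.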

How the data were processed

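Per the labels' protocols, poly(A) RNA of HK-2 cells was copied with a dUTP-marked second strand and read paired-end on a DNBSEQ instrument. The authors deposited 1 normalized signal value per transcript and library, to 1 decimal, and no source used here names the unit, aligner or annotation. The submitters' processing notes name GRCh38.p14. Of 267165 transcripts, 202305 (75.7%) matched GENCODE release 29 by identifier, and their values were summed per gene (57527 genes, 93.8% to 94.7% of each total). A gene's sum can miss transcripts without a match. limma 3.58.1 (R 4.3.3), with a mean-variance trend, was fitted to log2(signal + 1) of 16789 genes in one model of 4 groups without covariates. On simulated data with 50 genes changed per size, the fit found 52% of log2 changes of 0.5 at 240 ug/ml. It found 90% of changes of 1, and 4.52% of its calls were false. A gene not called is therefore not shown to be unchanged. Adjusted p-values are two-sided Benjamini-Hochberg values. Fold changes on this scale understate changes of low genes. The 40 genes, the other lists, the tests and the alternatives were chosen with earlier results of these data known. Values in every library are given for 10 genes chosen by role, the 6 highest and 4 lowest changes at 240 ug/ml and every gene called lower. Of the other lists, the 2 highest and 2 lowest called genes could be named. Alternatives were other pseudocounts, filters, scalings, transcript types and samples, a replicate block, and trends with GC content and length.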

Additional observations from a re-analysis of the deposited data

How the results depend on the processing

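At 60 ug/ml the members called higher numbered 10 with equal library totals, and the members called lower, 0 in the report, numbered 1 with protein-coding transcripts alone or with the 6 libraries compared alone. At 120 ug/ml 0 were lower with equal totals and 0 with the length trend subtracted. At 240 ug/ml 0 were lower with equal totals, 2 with the length trend subtracted and 0 without the libraries numbered 3 (a setting added after the data were seen, with 30 higher). Between 120 and 60 ug/ml 4 were higher with a filter of at least 5 in 3 libraries, 1 with quantile normalization, 6 with protein-coding transcripts, and 20 without the libraries numbered 3. Between 240 and 60 ug/ml 27 were higher with equal totals, 7 with the 6 libraries compared alone, 6 with the GC trend subtracted and 25 without the libraries numbered 3, and 0 were lower with no filter and under the first, second and last of these. With equal totals all genes called higher numbered 2782, 6090 and 7205 at 60, 120 and 240 ug/ml and lower 657, 1378 and 1531, and without the libraries numbered 3 they numbered 631 higher and 733 lower at 60 ug/ml. Leaving out 1 library at a time gave 3 to 6 members higher and 0 to 2 lower at 60 ug/ml, 15 to 28 and 0 to 2 at 120, 21 to 30 and 2 to 5 at 240, 0 to 24 higher for 120 against 60, and 4 to 26 higher and 0 to 1 lower for 240 against 60. It gave 18 to 32 members with any difference. For all genes it gave 923 to 1561 higher and 954 to 1883 lower at 60 ug/ml. The sign of CCNB1 at 240 ug/ml turned to 0.42 with equal totals, 0.11 with quantile normalization, 0.027 with the GC trend (with or without the replicate block), 0.14 with the length trend, and lay between -0.082 and 0.15 with 1 library left out, positive without control library 2 (0.0053), control library 3 (0.058) or 240 ug/ml library 2. That of CENPA turned to 0.15 and of KIF20A to 0.090 with equal totals. The cause of these shifts was not tested. Same-numbered libraries of different groups correlated at -0.03 to 0.24 (median 0.06, 6 of 18 pairs over 0.1) in their deviations from group means, against -0.21 to 0.11 (median -0.04, 1 of 36 over 0.1) for different numbers. Own-numbered libraries correlated best in 23 of 36 cases, and in every other group for 4 of 12 libraries. The libraries were not treated as paired, by a rule that every same-numbered pair exceed 0.1. That rule cannot show that equal numbers share nothing, and a shared batch was not tested. With a replicate block 8 members were higher and 1 lower at 60 ug/ml and 12 higher between 120 and 60 ug/ml, and with the block and the GC trend 14 were higher at 60 ug/ml and 4 between 120 and 60 ug/ml. Read depth is unknown, so its limit could not be given.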
